A study of Mus musculus with 24 samples.

Results

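B cells make antibodies, and most of the genes described here mark them or the cells they turn into. Cxcl13 is not such a marker but encodes a signal that B cells receive. The B cell antigen receptor signals through the paired chains Cd79a and Cd79b, Ms4a1 encodes the surface protein CD20, and Pax5 is the transcription factor that keeps a cell in the B lineage. Plasma cells, the end stage of the lineage, secrete antibody with the help of Mzb1, a chaperone of the endoplasmic reticulum, and Jchain joins antibody units into the polymers that are carried across mucosal surfaces. Cxcl13 is the chemokine that draws B cells into follicles through its receptor Cxcr5, and in inflamed lung it is known from lymphoid aggregates around airways and vessels. Pou2af1 is a coactivator that works with the octamer-binding factors at B cell genes.

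The 9 genes (Ms4a1, Cd79a, Cd79b, Pax5, Pou2af1, Jchain, Mzb1, Cxcl13 and Cxcr5) were chosen by name from 20738 genes named on the array, and each was read from its spot with the highest mean over the 24 samples. Lung RNA came from female C57BL/6 mice aged 7 to 8 weeks, which received 10 µg of a carbon nanomaterial in 50 µl of PBS a day for 4 days by oropharyngeal aspiration, in which the animal inhales a drop set on the throat. The tissue dates from 24 h after dosing ended. The groups were rCNT, tCNT and SES with 3 samples each, BayTubes, Graphite and fullerene with 4 samples each, and the PBS control, Ctrl, with 3 samples. The names rCNT, tCNT and BayTubes stand for carbon nanotubes, Graphite and fullerene for other forms of carbon, and the labels do not spell out SES. Each sample pooled the RNA of 2 mice, and the labels do not say whether a mouse entered more than 1 pool. All mice were of 1 strain and 1 sex, so the values describe only these.

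The samples were measured on 12 arrays on 3 slides, with a different sample in each dye of an array, and numbers after a group name are the sample numbers of the titles. Values are log2 signals, so that a step of 1 is a doubling. All 8 lung marker genes checked, among them surfactant genes, lay above the 58th percentile of named genes in every sample, the lowest at 58.7 (Foxj1). Ctrl samples were present on slides 1 and 2 and not on slide 3. In whole lung, more cells of a type and more RNA per cell cannot be told apart. All 9 genes passed the filter on low signals (above the 40th percentile of the sample, at 5.69 to 5.75, in at least 3 samples), and each was above that level in 24 of 24 samples. A gene was called changed at an adjusted p under 0.05 in a limma fit over the 16519 genes that passed.

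Cxcl13 was the gene of the set whose level depended most on the material. Its start lies on chromosome 5 (GRCm38.p6, gene at chr5:95956939-95961068, plus strand). The 250 bases before that start are shown because this was the member with the largest called change. They come from the RefSeq promoter table, 5′ to 3′, and the capitals mark TATAAA, the core of the TATA box.

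Cxcl13 upstream, chr5:95956689-95956938, plus strand: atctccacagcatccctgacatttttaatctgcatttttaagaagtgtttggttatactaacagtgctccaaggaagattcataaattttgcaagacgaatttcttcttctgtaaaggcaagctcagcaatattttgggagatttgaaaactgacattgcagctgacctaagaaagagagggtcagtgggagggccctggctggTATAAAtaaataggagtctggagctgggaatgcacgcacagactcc

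The TATAAA begins 46 bases before the annotated start. It was looked for after the values were known. Of 32851 mouse promoter windows of 300 bases (250 before and 50 after a start) in that table, 8.32% held TATAAA on the strand of the gene and 13.6% held it on either strand. Among the 5 members with a window in the table (Cd79a, Pax5, Pou2af1, Jchain and Cxcl13), Cxcl13 was the one with TATAAA on its own strand. The octamer ATGCAAAT, searched on both strands as ATGCAAAT or ATTTGCAT, was in 0 of these 5 windows and in 1.74% of all windows. That says only that these letters were not in these windows.

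After rCNT, the Cxcl13 signal was 10.18, 10.06 and 10.61. In Ctrl lungs it was 6.68, 6.52 and 6.57. All 3 rCNT samples were above all of the other 21 samples, of which the highest was 8.30. The limma fit put the change at 3.36 ± 0.33 (log2, SE; 95% interval 2.68 to 4.04; adjusted p = 1.11e-06), a 10.3-fold higher level (6.40-fold to 16.5-fold). The plain difference of the means was 3.69, larger than the fitted value because the fit also holds terms for dye and array. By p-value Cxcl13 was number 37 of the 16519 genes, and by size of change number 27. Within slide 1, where rCNT and Ctrl had 1 sample each, the change was 3.34 ± 0.62 (adjusted p = 0.0184), and within slide 2, with 1 rCNT and 2 Ctrl samples, it was 4.06 ± 0.33 (adjusted p = 2.34e-05). In both of these fits the error of a lone sample is borrowed from the spread of the other groups on the slide.

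**Figure D1:**
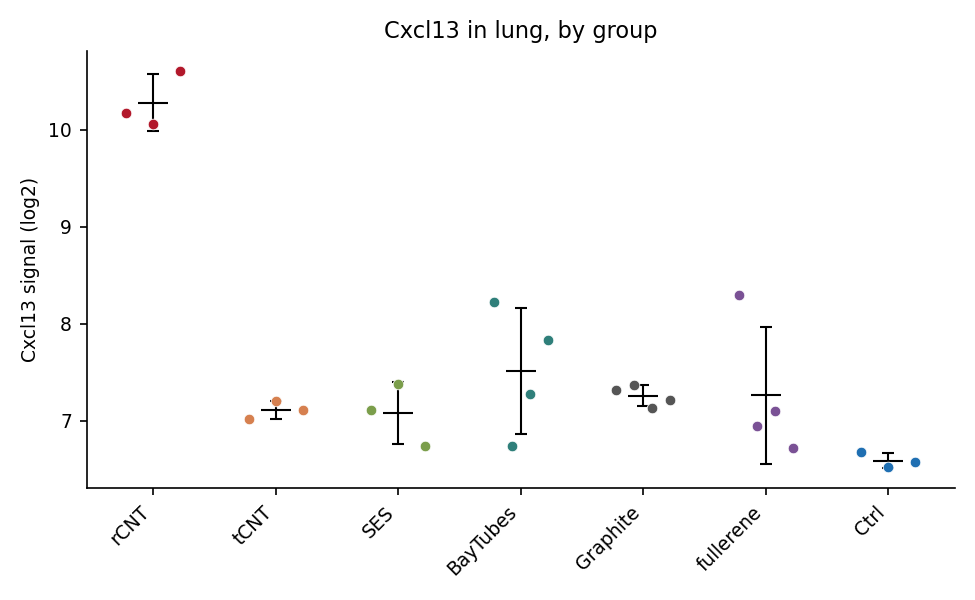
Cxcl13 signal (log2, vertical axis) in each of the 24 lung samples by group. Points are samples in the order of their numbers, the long tick is the group mean and the bar is 1 SD. The 3 rCNT samples lie from 10.06 to 10.61, and the 3 Ctrl samples, from 6.52 to 6.68, lie below all others.

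The other 5 materials gave much lower Cxcl13 levels than rCNT. BayTubes samples 17 to 20 had 8.23, 6.74, 7.28 and 7.83. Fullerene samples 21 to 24 had 8.30, 6.94, 7.10 and 6.72. In both groups 1 sample reached above 8, fullerene 21 on the same array as rCNT 5 and BayTubes 17 on the same array as tCNT 7. Graphite samples 13 to 16 were close together at 7.32, 7.37, 7.13 and 7.22. The tCNT samples had 7.02, 7.20 and 7.11, and the SES samples 7.11, 7.38 and 6.75. Each of these 18 samples was above the highest Ctrl sample, at 6.68, though by as little as 0.04 in fullerene 24. All 21 exposed samples were above every Ctrl sample in 182 genes, 1.1% of those tested, and Cxcl13 was the 1 member among them. All 3 rCNT samples were above every other sample in 895 genes, 5.42% of those tested, among them Cxcl13 and Mzb1.

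Against Ctrl, none of these 5 smaller Cxcl13 differences passed the threshold. BayTubes came nearest, at 0.89 ± 0.27 (95% interval 0.33 to 1.44; adjusted p = 0.0847, limma). Without BayTubes 18, the lowest of the 4, the difference was 1.20 and passed (adjusted p = 0.0255), and without BayTubes 17, the highest, it was 0.65 (adjusted p = 0.232). Fullerene was 0.56 ± 0.30 above Ctrl (adjusted p = 0.466) and 0.26 ± 0.25 above it without fullerene 21 (adjusted p = 0.766). Graphite was 0.51 ± 0.29 above Ctrl (adjusted p = 0.322), SES 0.48 ± 0.32 (adjusted p = 0.976) and tCNT 0.31 ± 0.32 (adjusted p = 0.874). The intervals reached up to 1.19 for fullerene, 1.11 for Graphite, 1.15 for SES and 0.99 for tCNT, so that a doubling lay inside the first 3 and at the edge of the last. The mean of the 5 materials, a contrast added after the Cxcl13 values had been seen, was 0.55 ± 0.24 above Ctrl (adjusted p = 0.298, limma), in a comparison that called 1.34% of genes.

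In the order of group means, rCNT (10.28) stood first, then BayTubes (7.52), fullerene (7.27), Graphite (7.26), tCNT (7.11), SES (7.08) and Ctrl (6.59). The first step of that order was tested and passed, with rCNT 2.48 ± 0.31 above BayTubes (adjusted p = 3.47e-05, limma; 13.1% of genes called). With array as a fixed term it was 1.64 ± 0.40 and did not pass (adjusted p = 0.103 for Cxcl13). None of the later steps passed. BayTubes was 0.32 above fullerene (adjusted p = 0.966; 0.0363% of genes called) and fullerene 0.06 above Graphite (adjusted p = 0.969; 0.0303% called). Graphite was 0.19 above tCNT (adjusted p = 0.847; 0.0303% called), and the fitted difference of tCNT and SES was -0.17 (adjusted p = 0.999; 0.0121% called). Against the mean of the other 5 materials, rCNT was higher by 2.81 ± 0.24 (adjusted p = 1.86e-07). A test of any difference among the 7 groups called Cxcl13 (adjusted p = 5.70e-06) and Mzb1 (adjusted p = 0.0165), 2 of the 9 members, where it called 17.8% of all genes.

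Cxcr5, the receptor for Cxcl13 on B cells (chr9:44511787-44526444), was called in no material. The rCNT samples had 7.84, 9.08 and 8.80, and the Ctrl samples 8.68, 8.47 and 8.59. The 3 rCNT samples thus lay on both sides of the Ctrl range, with rCNT 5 the highest and rCNT 4 the second lowest of all 24 samples. The fitted change was -0.03 ± 0.23 (95% interval -0.50 to 0.45; adjusted p = 0.953). BayTubes 20, at 7.77, was the lowest sample, and BayTubes as a group differed from Ctrl by -0.28 ± 0.19 (adjusted p = 0.587).

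Mzb1, the plasma cell chaperone, was the other member called after rCNT. Its rCNT signals were 8.82, 9.11 and 9.00, against 8.79, 8.59 and 8.41 in Ctrl lungs. The groups did not overlap, but rCNT 4 and Ctrl 1 were 0.03 apart. The change was 0.39 ± 0.13 (95% interval 0.11 to 0.67; adjusted p = 0.0401, limma), a 1.31-fold higher level. It stood near the threshold: leaving out any 1 of the 6 samples moved the adjusted p to between 0.0522 and 0.128, and with array as a fixed term it was 0.258. Within slide 1 the change was 0.19 ± 0.22 (adjusted p = 0.557) and within slide 2 it was 0.36 ± 0.37 (adjusted p = 0.559). The array holds 10 spots for Mzb1, a gene of chromosome 18, listed under its older symbol 2010001M09Rik, and the plain difference of rCNT and Ctrl was 0.08 to 0.60 over them. Their correlation with the spot used was at least 0.684 over the 24 samples. Against the mean of the other 5 materials Mzb1 was higher after rCNT by 0.44 ± 0.10 (adjusted p = 0.00217), and with array as a fixed term by 0.48 ± 0.14, which did not pass (adjusted p = 0.0737).

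Mzb1 was lowest in BayTubes lungs, at 8.52, 8.27, 8.52 and 8.13, a difference from Ctrl of -0.24 ± 0.11 that did not pass (adjusted p = 0.332, limma). The tCNT samples lay between 8.71 and 8.73, Graphite between 8.41 and 8.77, fullerene between 8.44 and 8.77 and SES between 8.18 and 8.65, all overlapping with Ctrl.

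Jchain, the other antibody secretion gene (chr5:88519809-88527897, on the array under its older symbol Igj), was called in no material. The rCNT samples had 8.71, 9.06 and 9.36, against 9.00, 9.15 and 8.75 in Ctrl lungs, and the change was 0.08 ± 0.23 (95% interval -0.41 to 0.57; adjusted p = 0.843). The highest Jchain signal of all belonged to tCNT 8, at 10.03, where tCNT 7 and tCNT 9 had 8.96 and 8.95. The tCNT difference from Ctrl was 0.33 ± 0.23 (adjusted p = 0.749).

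The group means of the B cell surface genes spanned 0.55 (Ms4a1), 0.57 (Cd79a) and 0.47 (Cd79b) over the 7 groups. Ms4a1 (chr19:11249679-11266149) had 9.82, 10.51 and 10.92 after rCNT and 10.03, 10.36 and 10.29 in Ctrl lungs. The rCNT samples lay on both sides of the Ctrl range, and the change was 0.11 ± 0.30 (95% interval -0.52 to 0.74; adjusted p = 0.835). All SES samples (10.80, 10.57 and 10.65) and all tCNT samples (10.46, 10.52 and 10.49) were above every Ctrl sample, but the fitted differences of 0.20 ± 0.29 and 0.10 ± 0.30 did not pass (adjusted p = 0.981 and 0.982). The share of all genes in which SES or tCNT lay above every Ctrl sample was not counted. The lowest Ms4a1 signal was 9.55 in BayTubes 20.

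Cd79a and Cd79b, the signalling chains of the antigen receptor, were not called in any material. Cd79a (chr7:24897497-24901858) had 11.33, 10.26 and 10.75 after rCNT, against 10.25, 10.88 and 9.83 in Ctrl lungs, a change of 0.29 ± 0.28 (95% interval -0.29 to 0.86; adjusted p = 0.500). The groups overlapped widely. Its 2 spots differed: the brighter one gave a plain difference of 0.46 and the dimmer one, with a mean of 7.03, gave -0.00, and they correlated at 0.610 over the 24 samples. The brighter spot also read 0.32 ± 0.12 higher in Cy5 than in Cy3 (adjusted p = 0.117), the largest dye term of the 9 genes, which the fit takes into account.

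Cd79b (chr11:106311341-106314562) had 11.80, 12.51 and 12.24 after rCNT and 12.09, 11.85 and 12.18 in Ctrl lungs, a change of 0.16 ± 0.17 (95% interval -0.19 to 0.51; adjusted p = 0.532). Graphite was the group in which all samples (12.24, 12.29, 12.49 and 12.24) were above every Ctrl sample, with a difference of 0.27 ± 0.15 that did not pass (adjusted p = 0.311). The share of all genes in which Graphite lay above every Ctrl sample was not counted. BayTubes 20 had the lowest Cd79b signal, at 11.46.

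Neither of the regulators was called in any material. Pou2af1 (chr9:51213690-51240079) had 8.72, 9.35 and 9.64 after rCNT and 9.12, 9.23 and 9.12 in Ctrl lungs, a change of 0.09 ± 0.22 (95% interval -0.38 to 0.55; adjusted p = 0.828). All 3 tCNT samples, from 9.34 to 9.41, were above the Ctrl samples, with a fitted difference of 0.15 ± 0.22 (adjusted p = 0.942). As for Ms4a1, the share of all genes with such a gap was not counted. Pax5 (chr4:44524748-44710694) was the weakest signal of the set relative to the filter level, between 5.77 and 6.51 over all samples. It had 5.80, 6.37 and 6.09 after rCNT, against 6.46, 6.26 and 6.13 in Ctrl lungs, and a change of -0.14 ± 0.17 (95% interval -0.49 to 0.21; adjusted p = 0.602). Its second spot, with a mean of 5.49, lay below the filter level and correlated with the first at 0.191.

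**Figure D2:**
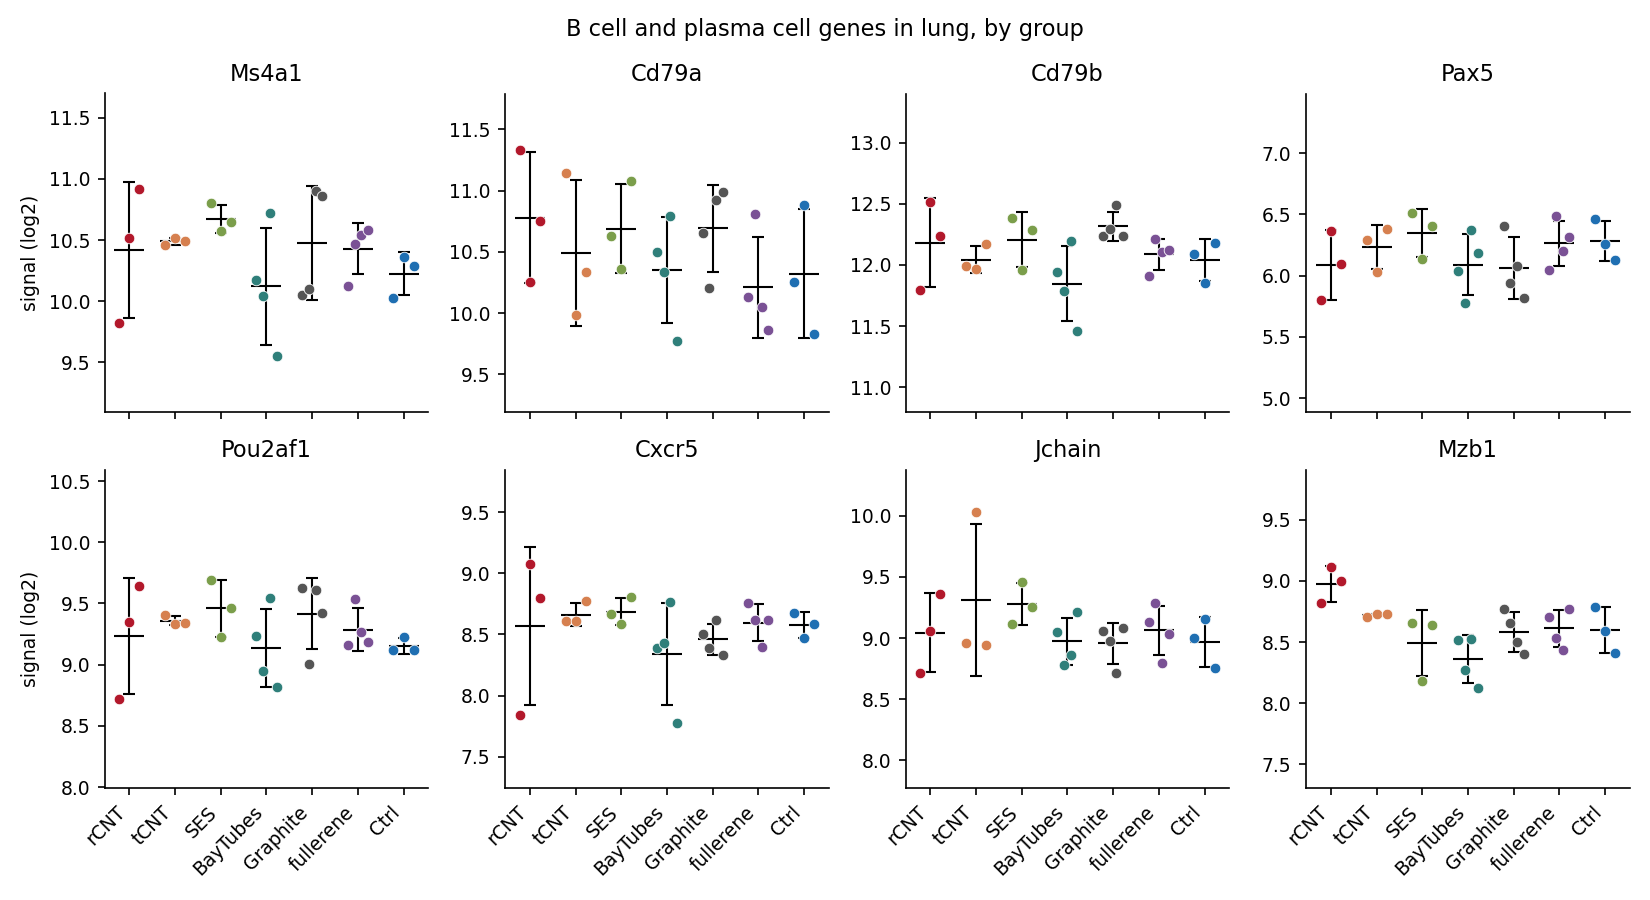
Signals (log2, vertical axes of equal length) of the 8 genes other than Cxcl13 in the 24 samples by group. Points are samples, long ticks are group means and bars are 1 SD. The group means of a gene differ by 0.29 (Pax5) to 0.61 (Mzb1), and single low samples such as rCNT 4 and BayTubes 20 recur in several panels. The Cd79a signal of rCNT 4 is the highest of the 24 samples. In the fit over all genes, rCNT 4 had the largest residual SD (0.49), followed by Graphite 16 on the same array (0.43).

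Counted together, 2 of the 9 genes were called in rCNT against Ctrl, both higher, where 21.8% of all genes tested were called. A share of 2 in 9 is near that background. Against the mean of the other 5 materials, the same 2 were called, where 26.2% of all genes were. In each of the other comparisons with Ctrl, 0 of the 9 genes were called by limma, while the share of all genes called was 0.708% for tCNT, 0% for SES, 3.18% for BayTubes, 1.13% for Graphite and 0.26% for fullerene. At an unadjusted p under 0.05, 2 of the 9 differed in BayTubes (Cxcl13 and Mzb1) and 0 in each of tCNT, SES, Graphite and fullerene. Cxcl13 aside, the 95% intervals of the 8 genes ran from -0.52 to 0.86 in rCNT, from -0.55 to 0.81 in tCNT and from -0.49 to 0.81 in SES. They ran from -0.76 to 0.44 in BayTubes, from -0.52 to 0.72 in Graphite and from -0.73 to 0.62 in fullerene. A change of 1 log2 unit in either direction therefore lay outside the interval of each of these genes in each material, while a change of 1.5-fold lay inside for several. The median change of the 9 genes was 0.11 in rCNT, against -0.02 over all genes tested. These comparisons share their Ctrl samples.

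**Figure D3:**
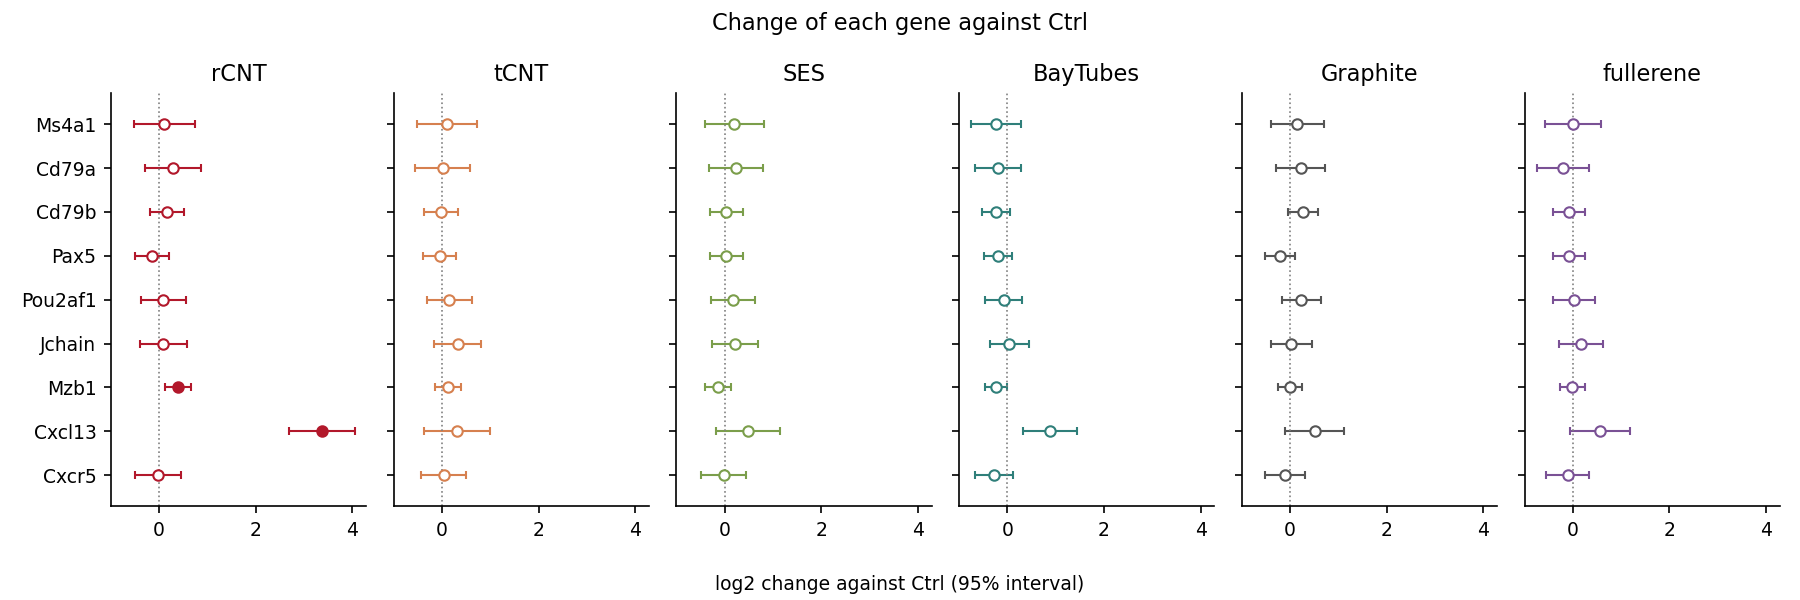
Log2 change of each of the 9 genes against Ctrl (horizontal axis, bars are 95% intervals) in each of the 6 materials. Filled points passed an adjusted p under 0.05. These are Cxcl13 at 3.36 and Mzb1 at 0.39, both in rCNT, and no interval of the 8 genes other than Cxcl13 reaches 1.

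Part of the spread within groups was shared between genes. Ms4a1 and Pou2af1 went together over the 24 samples (Pearson's r 0.78, Spearman's rho 0.73; permutation p = 2e-05 and 0.00016, adjusted p = 0.001 and 0.003 over the 28 pairs of the 8 genes other than Cxcl13). The permutations over samples treat the 24 as independent, though they share arrays in pairs and fall into groups, so these p-values may be too small. With group and dye fitted out, r of Ms4a1 and Pou2af1 was 0.77. Without rCNT 4 and BayTubes 20, the samples farthest from the median of Ms4a1, r was 0.67. Differences between the dyes of the same array remove array and slide, but not group, because the samples of an array came from different groups. These differences of the 2 genes correlated at 0.91 over 12 arrays (permutation, adjusted p = 0.002). Cd79b and Pou2af1 had r 0.71 and rho 0.69, and Ms4a1 and Cd79b had r 0.69 and rho 0.60. Cxcr5 correlated with Ms4a1 at 0.63 (rho 0.47), but without rCNT 4 and BayTubes 20 r was 0.27. Within arrays the same pair correlated at 0.88 (rho 0.89, permutation, adjusted p = 0.0021), so that the relation over samples rests on these 2 while the differences within arrays show it too. Of the 28 pairs, 9 passed by r, 4 of these also by rho, and 7 passed within arrays. Cd79a and Cd79b were among these 7 (r 0.72 within arrays), though over the 24 samples their r was 0.21. The correlations of Jchain with the other 7 genes were between -0.17 and 0.21. The share of pairs that pass among all genes was not counted, so the counts of passing pairs have no background. By r among the genes that passed the filter, Pou2af1 was 4th, Cd79b 16th and Cxcr5 43rd in likeness to Ms4a1. Cd79a was 1436th, Pax5 2999th, Mzb1 3696th and Jchain 4246th.

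**Figure D4:**
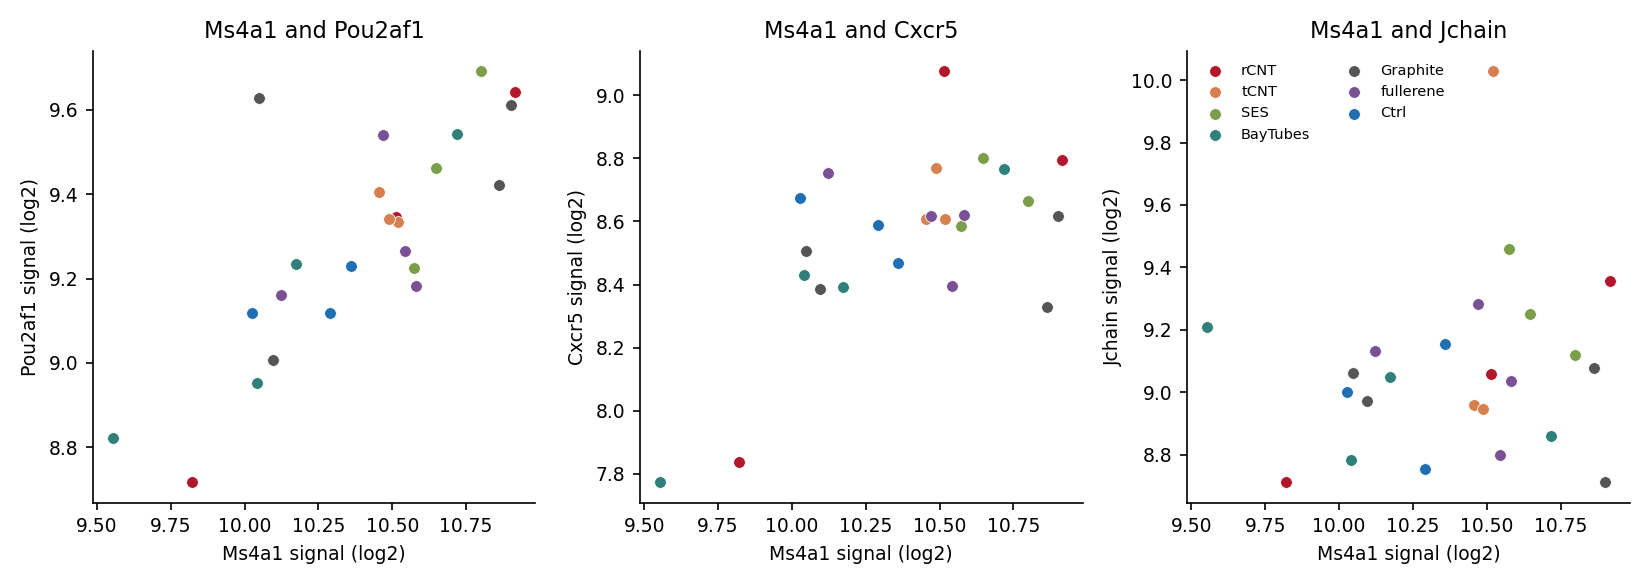
Ms4a1 signal (log2, horizontal axes) against Pou2af1, Cxcr5 and Jchain signal (log2, vertical axes) in the 24 samples, coloured by group. Ms4a1 and Pou2af1 rise together (r 0.78), in the relation with Cxcr5 (r 0.63 over samples, 0.88 within arrays) rCNT 4 and BayTubes 20 lie apart at the low end, and Jchain (r 0.16) shows none, with tCNT 8 far above the rest.

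Over all genes, the 5 most like Cxcl13 by Pearson's r over the 24 samples were Chl1, Retnlb, Ccl7, Saa1 and Orm1 (r from 0.96 to 0.97). Ccl7 is a monocyte-attracting chemokine, and Saa1 and Orm1 encode acute phase proteins. The samples share arrays in pairs and include the 3 high rCNT samples, and over the 21 samples without rCNT r was 0.79 to 0.84. For Cd79a the 5 most alike were Carmil2, Med24, BC147527, Nrgn and Septin1 (r from 0.79 to 0.84), and for Jchain they were Cabyr, Speer1, Mars2, Pla2g5 and Dcdc2a (r from 0.62 to 0.78, rho from 0.28 to 0.59). Cd79b was 3427th in likeness to Cd79a, the chain it pairs with, by r over the 24 samples (0.21). Without rCNT 4 and tCNT 7 the r of this pair was 0.43, and within arrays it was 0.72.

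Further genes of the lineage were read from lists, and each count is to be read against the 21.8% of all genes called in rCNT against Ctrl. Of 21 other B cell surface and identity genes tested, 4 were higher and 0 lower after rCNT, with a median change of 0.06, a share near that background. These were Fcgr2b (2.20 ± 0.27, adjusted p = 1.49e-05), the inhibitory Fc receptor that macrophages carry too, Cd72 (0.87 ± 0.20), the kinase Btk (0.62 ± 0.17) and Fcer2a (0.56 ± 0.17), the last named after its value was seen. Btk is also active in myeloid cells. The summed signal of the 21 genes, on the log2 scale, was 14.33 to 14.40 in rCNT, 14.21 to 14.34 in tCNT, 14.19 to 14.37 in SES, 13.81 to 14.45 in BayTubes, 14.10 to 14.53 in Graphite, 14.17 to 14.35 in fullerene and 13.97 to 14.04 in Ctrl. In every material other than BayTubes, all samples were above the Ctrl samples in this sum. The sum weighs the brightest genes most, and it was not tested. The sum of the lymphoid tissue chemokine and lymphotoxin list, described below, went the other way in every material other than rCNT. All samples of those materials, at most 14.87 in SES and fullerene, were below the Ctrl samples, at 14.89 to 14.99. In rCNT that sum, at 14.73 to 15.00, overlapped with Ctrl. Sums of several other lists described below separated from Ctrl too, in both directions. The plasma cell sum was above every Ctrl sample in SES and fullerene. The germinal centre sum was above them in Graphite and below them in BayTubes. The survival factor sum was below them in rCNT and BayTubes. The endothelial sum was below them in every material other than fullerene. These sums were not tested either. How often single genes separate from Ctrl in these ways was not counted.

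Of 16 other plasma cell and antibody secretion genes, 5 were higher and 0 lower after rCNT, with a median of 0.19. Irf4, a transcription factor of plasma cells that activated T cells and macrophages use as well, was 2.82-fold higher (adjusted p = 2.77e-05). Derl3, which works in the disposal of misfolded proteins, rose by 1.09 ± 0.14 (log2) (adjusted p = 2.62e-05), and Eaf2 by 0.72 ± 0.14 (adjusted p = 0.00125). The other 2 were Creld2 and Slamf7, named after their values were seen. Xbp1, the factor that drives secretion, had a change of -0.12 ± 0.15 (adjusted p = 0.608) and Sdc1, the plasma cell surface marker CD138, 0.14 ± 0.15 (adjusted p = 0.544), both also named after their values were seen. Which cells of the lung gave these signals was not tested. The values of Xbp1 and Sdc1 therefore do not show whether plasma cells changed.

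Germinal centre genes numbered 9, with 2 higher, 1 lower and a median of 0.13. Pdcd1 (1.40 ± 0.19, adjusted p = 3.95e-05) and Icos (0.83 ± 0.22, adjusted p = 0.00857), both T cell surface proteins, were the higher ones, though Pdcd1 was not above the filter level in every Ctrl sample (Ctrl mean 5.79), and Mef2b the lower one (-0.45 ± 0.13, adjusted p = 0.0205). Of 13 lymphoid tissue chemokine and lymphotoxin genes, 2 were higher and 1 lower, with a median of 0.22. Tnfsf11 (0.59 ± 0.14), the cytokine RANKL, was below the filter level in Ctrl, at 5.36. Il7r (0.65 ± 0.23, adjusted p = 0.0482) encodes the receptor for interleukin 7, and S1pr1 (-0.97 ± 0.25, adjusted p = 0.00753) the receptor that lets lymphocytes leave tissue and that endothelium carries. Ccl19, the T zone chemokine, had a change of -0.04 ± 0.46 (adjusted p = 0.966). Ccl19 was named after its value was seen.

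Among 5 survival factor and antibody transport genes, Il6 (3.08 ± 0.24, adjusted p = 9.24e-08) and Il5 (1.11 ± 0.15, adjusted p = 3.99e-05) were higher and Pigr (-0.34 ± 0.12, adjusted p = 0.0458), the receptor that carries polymeric antibody across epithelium, was lower. Il6 and Il5 are cytokines that act on B cells among many others. Neither was above the filter level in every Ctrl sample (Ctrl means 5.53 for Il6 and 5.39 for Il5), so the sizes of both changes are set against a signal near the low end of the array. In the other materials, lists of this lineage held 1 called gene, Ltb in BayTubes (-0.82 ± 0.22, adjusted p = 0.0489), the lymphotoxin chain that helps to form follicles.

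**Figure D5:**
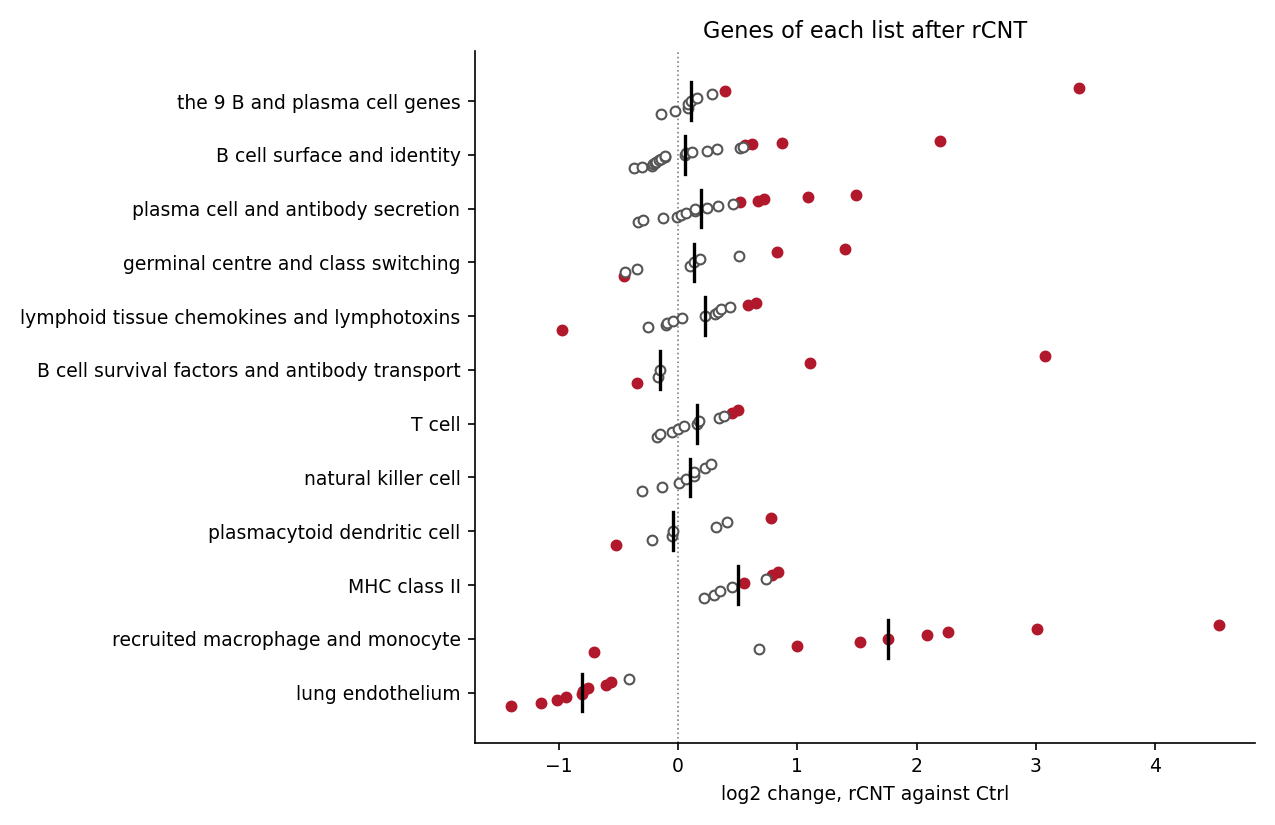
Log2 change in rCNT against Ctrl (horizontal axis) of the 9 genes and of the genes of 11 further lists. Each point is a gene, filled where it passed an adjusted p under 0.05, and the vertical tick is the median of the list. The B cell median is 0.06, the recruited macrophage median 1.76 and the endothelium median -0.80.

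Markers of other cells were read from lists too, and their counts stand against the same 21.8% of all genes called in rCNT against Ctrl. By their medians, the macrophage and endothelial lists moved most. Of 9 recruited macrophage and monocyte genes, 7 were higher and 1 lower, with a median of 1.76. Arg1 led them (4.54 ± 0.50, adjusted p = 4.18e-06), and the sum of the list was 15.63 to 16.30 in rCNT and 15.14 to 15.56 in Ctrl. Of 10 endothelial genes, 0 were higher and 9 lower, with a median of -0.80 and sums of 16.84 to 17.38 in rCNT and 17.83 to 17.97 in Ctrl. Of 8 MHC class II genes, which B cells share with macrophages and dendritic cells, 3 were higher (median 0.50; sums 16.95 to 17.94 in rCNT and 16.70 to 16.89 in Ctrl). Of 11 T cell genes, 2 were higher (Cd3d and Cd3g; median 0.16; sums 13.61 to 14.77 in rCNT and 13.45 to 13.81 in Ctrl). Natural killer cell genes were called in 0 of 8 (median 0.10; sums 12.55 to 12.94 in rCNT and 12.55 to 12.94 in Ctrl). Plasmacytoid dendritic cell genes had 1 higher and 1 lower of 7 (median -0.04; sums 16.07 to 16.36 in rCNT and 16.41 to 16.57 in Ctrl). The part of these cells in the Cxcl13 and Mzb1 changes was not tested.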

How the data were processed

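Lung RNA was hybridised to Agilent 2-colour arrays of 62976 spots, each dye carrying its own sample. The authors deposited log2 signals, and the submitters' processing notes name Agilent Feature Extraction and limma, without versions. Sorted, the samples held nearly the same values (largest gap 0.0856), as quantile normalization leaves them. Arrays give no read depth, and precision depends on how many samples there are.

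The platform annotation named 31465 spots. Names were updated through a table of assembly GRCm38.p6, by accession for 29036 spots, symbol for 2075 and synonym for 349, and 5 kept the platform symbol. Each gene was read from its spot with the highest mean. Of 20738 genes, 16519 passed the filter.

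Changes were fitted with limma 3.58.1 (R 4.3.3, statmod 1.5.0) over all 24 samples, using group and dye as fixed terms and the array as random block, whose correlation was 0.399. Variances were moderated (residual degrees of freedom 16, prior 3.54), with 2-sided tests and Benjamini-Hochberg adjustment over the genes of each comparison. Errors of changes are standard errors. Correlations of members were tested with 100000 permutations. The array correlation of 0.399 was also used within single slides and with only 2 groups, and a lone sample on a slide was taken to vary like other groups.

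The members, lists and tests were chosen with earlier results of these data known. From each list the 3 genes with the smallest p in rCNT could be named, and in other comparisons 2 where they passed; exceptions are stated. Alternatives changed the dye term, array block, slide term, filter, normalization, spot, variance prior, sample weights, threshold and samples in the fit. On simulated data for rCNT against Ctrl, with 200 of 16519 genes changed, the fit found 46, 92, 100 and 98% of genes changed 1.5-fold, 2-fold, 4-fold and 8-fold, and 1.75% of its calls were false. The simulated noise was normal, with 1 spread per gene for all samples. In the data the residual SD of a sample ran from 0.16 (SES 12) to 0.49 (rCNT 4), and 3600 genes were called. The simulated shares therefore need not hold for the data.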

Additional observations from a re-analysis of the deposited data

Results flagged for a closer look

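For 2 of the 9 genes, the level after rCNT differed from that after the other 5 materials in a direct test. Cxcl13 was higher after rCNT than in the mean of the other 5 by 2.81 ± 0.24 (log2, SE; adjusted p = 1.86e-07, limma), in 3 of 3 rCNT samples against each of the 18 others. Mzb1 was higher by 0.44 ± 0.10 (adjusted p = 0.00217), likewise in 3 of 3 rCNT samples, but did not pass with array as a fixed term (adjusted p = 0.0737). In this comparison 26.2% of all genes were called. No sample stood apart in its group by Dixon's test in the 27 sets of 4 samples, and sets of 3 samples were not tested.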

How the results depend on the processing

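Samples could not be paired between groups by the sample numbers in the titles, which no groups share. The samples that share an array were handled through the array term, random or fixed, and through differences within arrays. Cxcl13 after rCNT was called in 22 of 22 alternatives (2.58 to 4.06, adjusted p from 3.48e-07 to 0.0184), and Mzb1 after rCNT in 7 of 22 (0.19 to 0.44, adjusted p from 0.0349 to 0.559). The count of 2 members called in rCNT against Ctrl was 1 without the dye term, without the array block, with array or slide as a fixed term, with the mean of all spots of a gene, at a minimum of 1.5-fold, with only the 2 groups in the fit, within slide 1 and within slide 2. It was 1 to 1 with any single sample left out. The gene lost was Mzb1 each time. In BayTubes the count of 0 was 1 without sample 18, with a range of 0 to 1 over single samples left out, and 3 within slide 2, where 1 BayTubes sample stood against 2 Ctrl samples (Cxcl13 higher, Pou2af1 and Cxcr5 lower). Against the mean of the other 5 materials, the count of 2 became 1 when array was fixed, and Mzb1 was called in 11 of 12 alternatives there. The test of any difference among the 7 groups gave 1 in place of 2 without the array block, with array or slide as a fixed term and with the mean of all spots. For Cxcl13, the 1 passing step between neighbouring groups became 0 with array as a fixed term. The cause of these moves was not tested. No value turned its sign while called. Median centring moved the median of a sample by at most 0.013, and running quantile normalization again by at most 2.08e-06. Both alternatives could hardly differ from the main fit. The counts of alternatives above are therefore not counts of independent checks.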
